A study of Oryctolagus cuniculus with 34 samples.

Results

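Ion channels of muscle and nerve were followed in the supraspinatus muscle of rabbits after repair of a cut rotator cuff tendon. The genes were those of the count table whose human-ortholog symbol begins like that of a potassium, calcium, sodium, chloride, TRP, PIEZO, ryanodine, inositol trisphosphate, acetylcholine, GABA, glutamate, purinergic, acid-sensing or anoctamin channel gene, and this name rule found 33 of the 12937 genes tested. All 33 passed the minimum of 1 CPM (the count of a gene scaled to a common library size) in at least 1 library, and 13 of them passed it in every library used. CACNA1G, KCNIP2 and KCNK1 passed it only through repaired muscles, so that the minimum favoured a higher level in repair for these 3. ITPRIPL2 was taken up by its name and is not itself a channel. Partner proteins and subunits (KCNIP1, KCNIP2, KCNIP4, KCNMB1 and CACNG6) and exchangers (CLCN5 and CLCN6) are also counted as channel genes here. Symbols were at hand for 3310 of the genes tested, so channel genes outside these were not analysed here. No sodium, GABA or acid-sensing channel gene was among the 33, nor were RYR1 and CLCN1. Of the 33, 18 took their symbol from a list in order of gene identifier. The other 15 took it from the opening rows of a co-expression network that the study built on the repaired muscles. This makes the direction of those 15 no independent evidence. They were KCNG4, KCNJ2, KCNK1, KCNIP2, ITPR1, ITPR2, ITPRIPL2, TRPV2, TRPV4, PIEZO2, GRIN3A, P2RX7, CLCN5, CLCN6 and CLIC1.

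The animals were female New Zealand White rabbits of about 6 months, 17 in all. The left supraspinatus tendon was cut (tenotomy), left for 8 weeks and then repaired, and the right shoulder was the control. That side is described both as a sham with a skin cut and as unoperated. Muscle was taken at 1 week (n = 4 rabbits), 2 weeks (n = 5), 4 weeks (n = 4) and 8 weeks (n = 4) after repair, from both shoulders of each rabbit. The repair library of rabbit 3 at 8 weeks was left out for its quality, so that group held 3 libraries and 33 libraries entered the fit. Every repaired muscle had thus also been through tenotomy, and repair cannot be told apart from the tenotomy before it.

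Ion channels are pores through which potassium, calcium, sodium or chloride cross a membrane. In skeletal muscle, voltage sensing by the L-type calcium channel of the T-tubule opens the calcium release channel of the sarcoplasmic reticulum, and potassium and chloride channels bring the membrane back to rest. Other channels open on stretch, ATP or glutamate, and many of these are also known from fibroblasts, vessel walls, immune cells and nerve endings, all of which lie in a piece of whole muscle.

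Libraries held between 9220035 and 28395188 counts on genes, with those of 1 and 8 weeks deeper (13262913 to 28395188, n = 15) than those of 2 and 4 weeks (9220035 to 12332438, n = 18). The sample titles also fall into these 2 series. The summed level of 8 muscle fibre markers was 7976 CPM in the repair library of rabbit 6 (1 week) and 9070 CPM in that of rabbit 59 (2 weeks), the lowest sums of the series. The repair libraries of rabbits 62 (15050 CPM, 2 weeks), 7 (20330 CPM, 1 week) and 66 (23480 CPM, 4 weeks) also lay below the lowest control library, at 23600 CPM. The sum of 9 fibroblast markers lay between 1394 and 1825 CPM in control and between 5118 and 18550 CPM in repaired muscle at 1 week. At 2 weeks it lay between 765 and 1273 CPM in control and between 638 and 57550 CPM in repaired muscle, the highest being that of rabbit 59. The 7 macrophage markers summed to 11.97 to 20.1 CPM in control and 8.43 to 464 CPM in repaired muscle at 2 weeks. In the mean of the 4 time points 8 of 9 fibroblast, 3 of 3 adipocyte and 2 of 6 endothelial markers were called higher and 0 of 7 macrophage markers, where 22.4% of all genes were called higher. In bulk muscle, fewer cells of a type and less RNA per cell cannot be told apart.

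**Figure D1:**
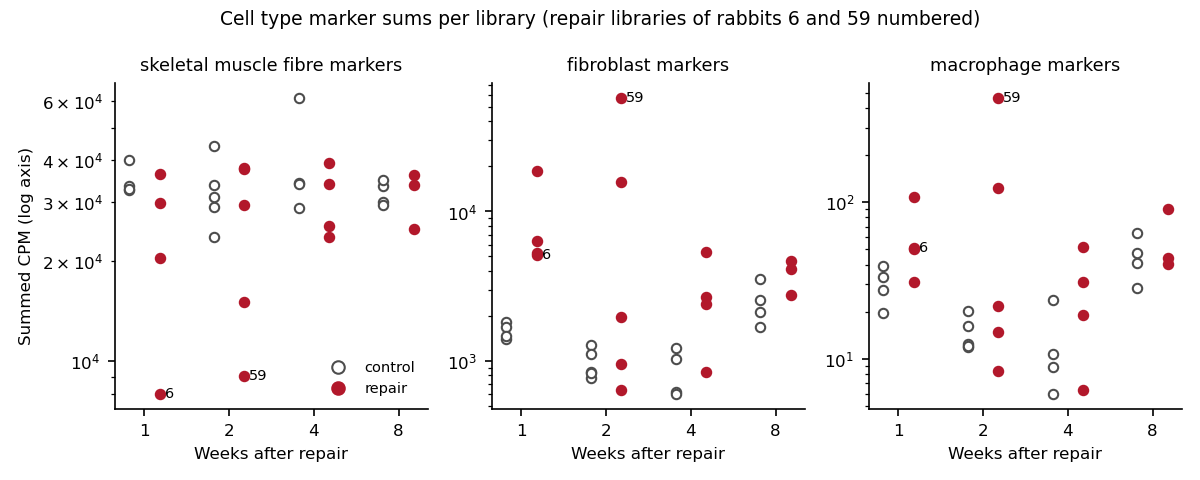
Summed CPM (log axis) of muscle fibre, fibroblast and macrophage markers in each library, by weeks after repair; open circles are control and filled circles repaired muscle. The repair libraries of rabbits 6 and 59, numbered, hold the lowest fibre sums, and that of rabbit 59 the highest fibroblast sum at 57550 CPM.

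Repaired was compared with control muscle at each time point, and in the mean of the 4 time points, which asks for a change shared over time. In that mean, 16 of the 33 channel genes were called (adjusted p under 0.05 by limma-voom, with p-values adjusted by Benjamini-Hochberg over the whole table), 13 higher and 3 lower. This is 48.5% of the channel genes, against 40.1% of all genes tested (22.4% higher and 17.7% lower), so the share called lies near the background. The median log2 fold change (log2FC) was 0.44 over the channel genes and 0.04 over all genes. Of the 15 channel genes with a symbol from the network 7 were called higher and 1 lower, with a median of 0.67, and of all 1447 genes with a symbol from it 516 were called higher and 177 lower, with a median of 0.19. Of the 18 channel genes from the list 6 were called higher and 2 lower, with a median of 0.17, and of all 1863 genes from that list 454 were called higher and 375 lower, with a median of 0.02. These 6 include CACNA1G, which passed the minimum only through repaired muscles.

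**Figure D2:**
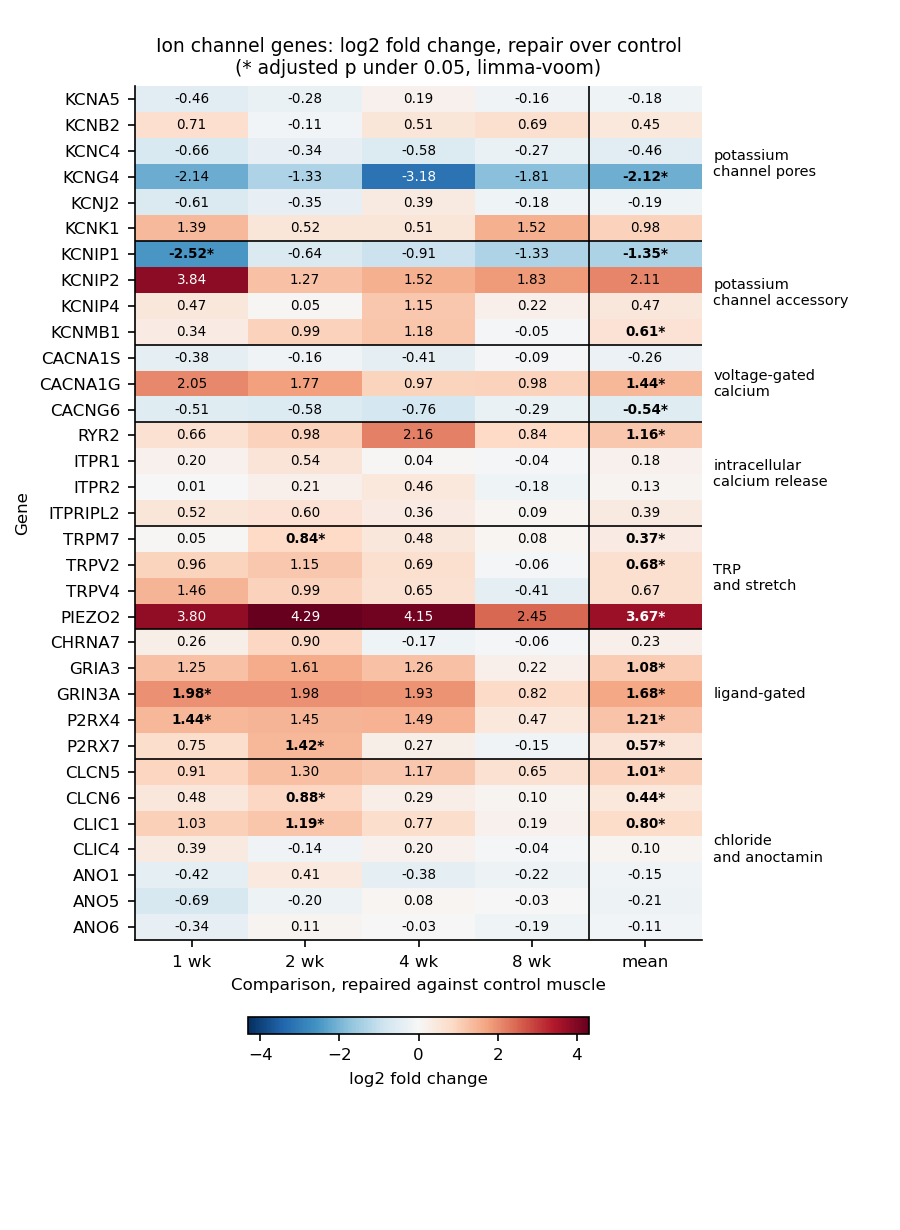
Log2FC of repaired over control muscle for the 33 channel genes (rows, by class) at each time point and in the mean; red is higher in repair, blue lower, and a star marks an adjusted p under 0.05. Stars are 3 at 1 week, 4 at 2 weeks, 0 at 4 and 8 weeks and 16 in the mean.

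At single time points fewer genes passed. At 1 week, 3 of 33 were called (9.09%, background 13.7%), GRIN3A and P2RX4 higher (background 6.81%) and KCNIP1 lower (6.88%), and 17 (51.5%) had an unadjusted p under 0.05, against 33.3% of all genes. Repair and control libraries did not overlap for 15 of 33 (45.5%, background 29.4%), 10 above (background 16.1%) and 5 below (13.3%). The 10 above included CACNA1G and KCNK1, which passed the minimum only through repaired muscles. KCNK1, TRPV2, PIEZO2, GRIN3A, CLCN5, CLCN6 and CLIC1 among them took their symbol from the network. The direction of these genes is no independent evidence. At 2 weeks 4 of 33 were called, all higher (12.1%, background 15.9% in either direction and 7.95% higher): TRPM7, CLCN6, CLIC1 and P2RX7. Of these, TRPM7 and CLCN6 were the 2 genes without overlap (6.06%, background 7.84%). CLCN6, CLIC1 and P2RX7 had their symbol from the network (246 of 1447 genes higher at 2 weeks) and TRPM7 from the list (171 of 1863). At 4 weeks limma-voom called 0 of 33 (background 0.124%), with 8 (24.2%) at an unadjusted p under 0.05, against 15.9% of all genes. For the same comparison edgeR called 0 (its background 2.53%) and DESeq2 3 (9.09%, its background 5.16%). At 8 weeks limma-voom, edgeR and DESeq2 called 0 of 33 (background 0.00773% with limma-voom and edgeR and 0.0387% with DESeq2), and 2 (6.06%, all genes 3.07%) had an unadjusted p under 0.05 in limma-voom, KCNIP1 and PIEZO2. Groups did not overlap for 4 of 33 at 4 weeks (12.1%, background 9.11%) and for 3 of 33 at 8 weeks (9.09%, background 7.56%).

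The shoulders of a rabbit are paired, and with the rabbit as a block the fit called 14 of 33 at 1 week (10 higher, 4 lower, background 26.3%). It called 13 of 33 at 2 weeks (all higher, background 31.6%), 1 at 4 weeks (KCNG4, background 2.81%) and 0 at 8 weeks (background 0.00773%). In the paired fit the mean of the 4 time points had 19 called (background 46.4%). The count at 1 week also turned on the library of rabbit 59, which belongs to another time point. Without its repair library 14 of 33 were called at 1 week (background 28.7%), and at 2 weeks 1, TRPM7 (background 2.62%). All libraries share the filter, the scaling and the spread estimate, and which of these moved the count was not tested. The 11 genes added at 1 week were KCNG4, KCNJ2, CACNA1G, TRPV2, TRPV4, PIEZO2, GRIA3, CLCN5, CLCN6, CLIC1 and ANO5. Fitted alone, the libraries of 2 weeks gave 0 calls (background 0.0396%) and those of 1 week gave 11 (background 24.4%).

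The pore-forming potassium channel genes held 1 called gene of 6 in the mean (background 40.1%). KCNG4, a modifier subunit that is silent alone and joins with Kv2 pores, lay between 0.411 and 7.64 CPM in the 17 control libraries (median 1.79) and between 0.0828 and 3.85 CPM in the 16 repair libraries (median 0.251). At 4 weeks its levels were 4.59, 2.69, 2.28 and 0.626 CPM in control and 0.0996, 0.254, 0.218 and 0.196 CPM in repaired muscle of rabbits 63, 66, 67 and 68. Every repair library of 4 weeks lay below every control, and the highest repair level of all was that of rabbit 8 at 1 week. In the mean KCNG4 fell by 2.12 on the log2 scale (SE 0.48, adjusted p = 0.00158, limma-voom), lower in 15 of 16 rabbits. The repaired levels correspond to few reads, with counts as low as 1.

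The other 5 potassium pores were not called between repair and control in the fit of all 33 libraries. KCNJ2, the inward rectifier that holds the resting potential of muscle, had levels of 35.5 to 52.1 CPM in control and 23.8 to 33.04 CPM in repaired muscle at 1 week, where the groups did not overlap (log2FC -0.61, SE 0.27, adjusted p = 0.114, limma-voom). KCNJ2 was called at 1 week without the repair library of rabbit 59 and with the rabbit as a block. KCNA5, a delayed rectifier, did not overlap either at 1 week, with 9.34 to 11.2 CPM in control and 5.56 to 8.69 CPM in repair (log2FC -0.46, adjusted p = 0.144, limma-voom). KCNC4, a fast Kv3 channel, had a mean log2FC of -0.46 (adjusted p = 0.0537, limma-voom), and KCNB2, a delayed rectifier, one of 0.45. KCNK1, a two-pore-domain leak channel, was at 0 in 7 libraries and reached 1.84 CPM at most.

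KCNIP1 and KCNMB1, partners of potassium channels, were called in opposite directions. KCNIP1, a calcium-binding protein that escorts Kv4 channels, was at 3.42, 3.05, 4.83 and 6.21 CPM in control and at 0.898, 0.109, 1.24 and 2.61 CPM in repaired muscle of rabbits 5, 6, 7 and 8 at 1 week. No repair library reached the lowest control library. KCNIP1 fell by 2.52 on the log2 scale at 1 week (SE 0.53, adjusted p = 0.00452, limma-voom), in 4 of 4 rabbits, and kept its call without each library of 1 week in turn (log2FC -3.05 to -1.55). The mildest of these values came without the repair library of rabbit 6, whose fibre marker sum was also the lowest at 1 week.

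At the later times KCNIP1 levels overlapped. It ranged from 2.597 to 5.23 CPM in control and 1.27 to 3.36 CPM in repair at 2 weeks, from 2.09 to 6.88 and 1.10 to 2.39 CPM at 4 weeks, and from 2.48 to 3.83 and 0.799 to 3.19 CPM at 8 weeks. In the mean KCNIP1 fell by 1.35 (SE 0.27, adjusted p = 0.000524, limma-voom), lower in 15 of 16 rabbits. Its effect at 1 week differed from that at 2 weeks by -1.88 (SE 0.69), with an adjusted p of 0.763 (limma-voom) for the difference.

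KCNMB1, the beta subunit of the large-conductance calcium-activated potassium channel of smooth muscle, lay within the bounds of KCNIP1 in the RefSeq annotation of rabbit (mOryCun1.1). The libraries were made with a kit that marks the strand, but whether counting used it is not given in the sources used here, so reads could be split between the pair, and 9 of the 33 genes in all overlap another protein-coding gene there, GRIN3A, P2RX7, CLIC1, RYR2 and TRPM7 among them. KCNMB1 was at 0.655, 1.46, 1.14 and 1.25 CPM in control and 2.69, 1.86, 3.56 and 2.15 CPM in repaired muscle of rabbits 63, 66, 67 and 68 at 4 weeks, without overlap. Its mean log2FC was 0.61 (SE 0.17, adjusted p = 0.00658, limma-voom), higher in 12 of 16 rabbits. Of 8 markers of vessel wall cells 4 were called higher in the mean (background 22.4%), 0 lower, and their part in the KCNMB1 result was not tested.

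KCNIP2 and KCNIP4, of the same family as KCNIP1, were not called in these comparisons. KCNIP2 was at 0.0554 to 0.187 CPM in control and at 9.13, 0.109, 6.36 and 1.74 CPM in repaired muscle at 1 week in rabbits 5, 6, 7 and 8 (log2FC 3.84, SE 1.61, adjusted p = 0.0983, limma-voom). The repaired muscle of rabbit 6 lay within the control range and that of the other 3 above it. KCNIP4 had a mean log2FC of 0.47.

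**Figure D3:**
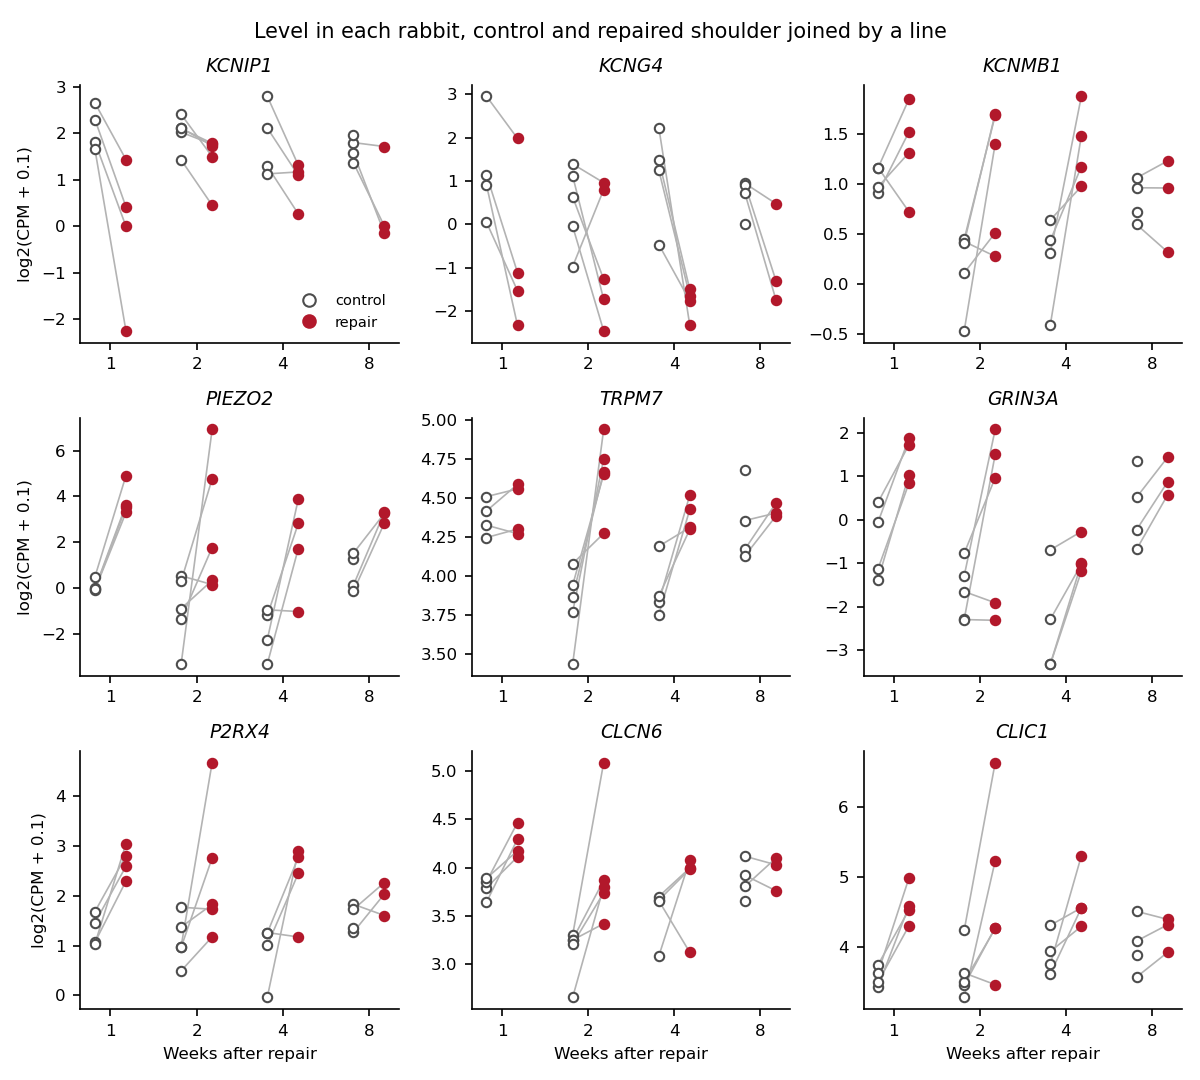
Level of 9 channel genes as log2(CPM + 0.1) in each rabbit at 1, 2, 4 and 8 weeks after repair; open circles are control and filled circles repaired muscle of the same rabbit, joined by a line. KCNIP1 and KCNG4 lie lower in repaired muscle in 15 of 16 rabbits, and PIEZO2 higher in 14 of 16.

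The calcium channels of the surface membrane were called in 2 of 3 in the mean (background 40.1%), 1 of these being CACNA1G, which passed the minimum only through repaired muscles. CACNA1S, the voltage sensor of excitation-contraction coupling, was not called, with 224 to 1426 CPM in repair and 418 to 1351 CPM in control (mean log2FC -0.26, adjusted p = 0.267, limma-voom). CACNG6, a gamma subunit of the muscle calcium channel family, lay between 49.8 and 173 CPM in control (median 88.8) and between 16.8 and 84.7 CPM in repair (median 63.4). It fell by 0.54 in the mean (SE 0.17, adjusted p = 0.0121, limma-voom), lower in 14 of 16 rabbits, while 3 of 8 fibre markers were called lower (background 17.7%) and 1 higher. The part of fibre content in this was not tested.

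CACNA1G, a low-voltage-activated (T-type) calcium channel, lay between 0 and 0.897 CPM in control (median 0.522) and between 0.202 and 7.49 CPM in repair (median 1.26). At 1 week it was at 0.855, 0.665, 0.224 and 0.428 CPM in control and 1.298, 1.64, 4.63 and 1.24 CPM in repair of rabbits 5, 6, 7 and 8, so every repair library was above every control. Its mean log2FC was 1.44 (SE 0.44, adjusted p = 0.0116, limma-voom), higher in 14 of 16 rabbits. No control library reached the minimum of 1 CPM, so the gene was tested only because it was high in repair. With no minimum in the fit the call in the mean was kept. The gene was still chosen by a rule that holds this minimum, so that fit cannot undo the choice.

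Among the genes of intracellular calcium release, 1 of 4 was called in the mean (background 40.1%). RYR2, the ryanodine receptor known best from heart muscle, lay between 0 and 2.19 CPM in control (median 1.35) and between 0.606 and 4.07 CPM in repair (median 2.45). At 8 weeks it was at 1.67, 1.04, 2.18 and 1.84 CPM in control rabbits 1, 2, 3 and 4 and at 2.41, 2.52 and 3.90 CPM in repaired rabbits 1, 2 and 4, without overlap. RYR2 was higher in the mean by a log2FC of 1.16 (SE 0.28, adjusted p = 0.00227, limma-voom), in 13 of 16 rabbits. The inositol trisphosphate receptors ITPR1 and ITPR2 had mean log2FC of 0.18 and 0.13, and ITPRIPL2 had 0.39, none of them called.

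Of the TRP and stretch-gated channels 3 of 4 were called higher in the mean (background 22.4%). Of these, PIEZO2 and TRPV2 took their symbol from the network (516 of 1447 genes called higher) and TRPM7 from the list (454 of 1863). PIEZO2, a stretch-gated cation channel of touch and proprioceptive neurons, was among the members the one with the largest mean log2FC, 3.67 (SE 0.90, adjusted p = 0.00272, limma-voom), higher in 14 of 16 rabbits. At 1 week it was at 0.855, 0.887, 1.31 and 0.857 CPM in control and at 9.73, 12.2, 29.9 and 11.5 CPM in repaired muscle of rabbits 5, 6, 7 and 8. Every repair library stood above every control, and the adjusted p at 1 week was 0.0514 (limma-voom). PIEZO2 passed the threshold at 1 week without the repair library of rabbit 59, 62, 63 or 68, all of other time points, with the rabbit as a block, and with edgeR and DESeq2.

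At 2 weeks PIEZO2 was at 121 and 27.0 CPM in the repaired muscle of rabbits 59 and 62, and at 1.01, 3.31 and 1.16 CPM in that of rabbits 60, 61 and 64, with controls at 0 to 1.35 CPM. At 4 weeks it was at 14.6, 6.95, 3.2 and 0.391 CPM in repair of rabbits 63, 66, 67 and 68 and at 0 to 0.417 CPM in control. At 8 weeks it was at 9.83, 7.06 and 9.49 CPM in repair and 0.808 to 2.78 CPM in control, again without overlap. The PIEZO2 levels thus spread widely among repaired muscles of 2 weeks. There the fibroblast marker sum was 57550 CPM in rabbit 59 and 15760 CPM in rabbit 62 and between 638 and 1972 CPM in the other 3. The macrophage sum was 464 and 123 CPM in rabbits 59 and 62, against 8.43 to 21.6 CPM in the other 3. The fibre sum was 9070 and 15050 CPM in rabbits 59 and 62, against 29300 to 37830 CPM in the other 3. The part of cell content in the PIEZO2 levels was not tested. Without the repair libraries of rabbits 6 and 59 PIEZO2 remained called in the mean. That setting was chosen after seeing the data and kept the repair libraries of rabbits 62 and 7, so it does not test cell content.

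TRPM7, a cation channel fused to a kinase and known for magnesium balance, had levels within a narrow range. At 2 weeks TRPM7 was at 10.7, 16.8, 15.2, 14.5 and 13.5 CPM in control and at 30.5, 19.2, 25.0, 25.3 and 26.8 CPM in repaired muscle of rabbits 59, 60, 61, 62 and 64. All 5 repaired muscles lay above all 5 controls. Its log2FC at 2 weeks was 0.84 (SE 0.13, adjusted p = 0.00231, limma-voom), and the call was kept without each library of 2 weeks in turn. The call was lost with all 34 libraries and with those of 2 weeks alone. Over the 13 other settings the log2FC lay between 0.73 and 0.88.

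At 4 weeks TRPM7 was at 13.4 to 18.1 CPM in control and 19.6 to 22.8 CPM in repair, without overlap (log2FC 0.48, adjusted p = 0.135, limma-voom). At 1 week it was at 18.9 to 22.6 and 19.2 to 23.9 CPM, a log2FC of 0.05. The difference between these effects at 1 and 2 weeks was -0.79 (SE 0.19, unadjusted p = 0.000246, adjusted p = 0.361, limma-voom). TRPM7 was also higher in the controls of 1 and 8 weeks than in those of 2 and 4 weeks, by a log2FC of 0.49 (adjusted p = 0.00147, limma-voom), where time and title series cannot be told apart. In the mean it was higher by 0.37 (SE 0.07, adjusted p = 0.000421, limma-voom), in 15 of 16 rabbits.

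TRPV2, a cation channel of macrophages, muscle and nerve, lay between 0.971 and 2.31 CPM in control and 1.03 and 9.20 CPM in repair. At 1 week it was at 1.43 to 2.29 CPM in control and 2.55 to 3.89 CPM in repair without overlap, and its mean log2FC was 0.68 (SE 0.21, adjusted p = 0.0105, limma-voom). TRPV4, a channel gated by heat and cell swelling, was not called (mean log2FC 0.67, SE 0.35, adjusted p = 0.125, limma-voom).

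Of the ligand-gated channels 4 of 5 were called higher in the mean (background 22.4%). GRIN3A and P2RX7 had their symbol from the network (516 of 1447 genes called higher), P2RX4 and GRIA3 from the list (454 of 1863). P2RX4, an ATP-gated cation channel, was at 2.00, 3.11, 1.95 and 2.64 CPM in control and 4.79, 6.84, 8.12 and 5.91 CPM in repaired muscle of rabbits 5, 6, 7 and 8 at 1 week. The groups did not overlap, and P2RX4 rose by a log2FC of 1.44 at 1 week (SE 0.46, adjusted p = 0.0391, limma-voom). This call was lost without 6 of the 8 libraries of 1 week in turn, the adjusted p then reaching 0.132 at most and the log2FC staying between 1.298 and 1.57, and with edgeR or all 34 libraries. In the mean P2RX4 was higher by 1.21 (SE 0.28, adjusted p = 0.00171, limma-voom), in 13 of 16 rabbits.

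P2RX7, the ATP receptor of immune cells, was at 0.935, 0.207, 0.874, 0.822 and 0.654 CPM in control and 4.57, 0.909, 1.17, 2.19 and 1.08 CPM in repaired muscle of rabbits 59, 60, 61, 62 and 64 at 2 weeks. Each rabbit was higher in its repaired muscle, though the groups overlapped between 0.909 and 0.935 CPM. The log2FC was 1.42 at 2 weeks (SE 0.48, adjusted p = 0.0455, limma-voom). The call was lost without the repair library of rabbit 59, in 6 other fits without 1 library and in 5 of 13 other settings. The log2FC at 2 weeks lay between 0.993 and 1.599 without 1 library and between 0.994 and 1.538 over the 13 settings. The call on the mean effect of 0.57 (adjusted p = 0.0488, limma-voom) was likewise lost in 21 of 33 fits without 1 library. It was also lost in 7 of 12 other settings. The mean log2FC lay between 0.46 and 0.64 over the 33 fits and between 0.33 and 0.59 over the 12 settings. All 7 macrophage markers had a positive log2FC at 2 weeks, with 0 called, and their part in the P2RX7 result was not tested.

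GRIN3A, a glutamate receptor subunit of the NMDA family, was at 0.285, 1.22, 0.860 and 0.357 CPM in control and 1.95, 3.203, 3.57 and 1.69 CPM in repaired muscle of rabbits 5, 6, 7 and 8 at 1 week, without overlap. It rose by a log2FC of 1.98 at 1 week (SE 0.64, adjusted p = 0.0388, limma-voom), and the call was lost without 6 of the 8 libraries of 1 week in turn (log2FC 1.70 to 2.30 over the 8) and with edgeR, DESeq2, no filter or all 34 libraries. Its mean log2FC was 1.68 (SE 0.44, adjusted p = 0.00442, limma-voom), higher in 14 of 16 rabbits. GRIN3A was also higher by 2.20 in the controls of 1 and 8 weeks than in those of 2 and 4 weeks (adjusted p = 0.0379, limma-voom), and was at 0 in 2 control libraries.

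GRIA3, an AMPA-type glutamate receptor subunit, was at 1.43, 1.497, 2.28 and 2.79 CPM in control and 3.14, 3.90, 10.2 and 3.30 CPM in repair of rabbits 5, 6, 7 and 8 at 1 week. The groups did not overlap, and rabbit 7 stood above the others. Its mean log2FC was 1.08 (SE 0.36, adjusted p = 0.0182, limma-voom). CHRNA7, an acetylcholine receptor subunit of nerve that is not part of the adult endplate receptor, was not called (mean log2FC 0.23, adjusted p = 0.448, limma-voom).

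Of the chloride channel and anoctamin genes 3 of 7 were called higher and 0 lower in the mean (background 22.4% higher and 40.1% in either direction). All 3 took their symbol from the network, where 516 of 1447 genes were called higher, and the uncalled ones from the list. CLIC1, an intracellular chloride channel protein, was at 18.7, 10.8, 11.2, 9.55 and 12.2 CPM in control and 99.5, 19.2, 19.1, 37.5 and 10.9 CPM in repaired muscle of rabbits 59, 60, 61, 62 and 64 at 2 weeks. The repaired muscle of rabbit 64 lay within the control range. Its log2FC was 1.19 at 2 weeks (SE 0.39, adjusted p = 0.0375, limma-voom), and the mean was 0.80 (SE 0.20, adjusted p = 0.00347, limma-voom). The call at 2 weeks was lost in 6 of 10 fits without 1 library of 2 weeks, those without the control of rabbit 60, 61, 62 or 64 or the repair of rabbit 59 (log2FC 0.71) or 62, and with all 34 libraries, with sample quality weights, with the libraries of 2 weeks alone and without the repair libraries of rabbits 6 and 59.

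CLCN6, a chloride-proton exchanger of late endosomes, was at 9.77, 6.21, 9.42, 9.45 and 9.15 CPM in control and 33.8, 13.8, 10.6, 14.5 and 13.3 CPM in repaired muscle of rabbits 59, 60, 61, 62 and 64 at 2 weeks. All repaired muscles were above all controls, and the log2FC was 0.88 (SE 0.24, adjusted p = 0.0211, limma-voom). The call was lost without the repair library of rabbit 59 (log2FC 0.58) or without the control library of rabbit 60, with the libraries of 2 weeks alone, and without the repair libraries of rabbits 6 and 59. CLCN6 was higher in the mean by 0.44 (SE 0.12, adjusted p = 0.00657, limma-voom), in 13 of 16 rabbits.

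CLCN5, the endosomal exchanger known from the kidney tubule, was at 0.207 to 1.496 CPM in control (median 0.784) and 0.303 to 5.71 CPM in repair (median 1.55). Its groups did not overlap at 1 week or at 8 weeks, and its mean log2FC was 1.01 (SE 0.28, adjusted p = 0.00572, limma-voom), higher in 15 of 16 rabbits. CLIC4 (mean log2FC 0.10), ANO1 (-0.15), ANO5 (-0.21) and ANO6 (-0.11) were not called. ANO5, an anoctamin whose loss causes a muscular dystrophy, was at 105 to 121 CPM in control and 62.7 to 77.9 CPM in repaired muscle at 1 week without overlap (log2FC -0.69, SE 0.29, adjusted p = 0.0973, limma-voom). ANO5, too, was called at 1 week without the repair library of rabbit 59 and with the rabbit as a block.

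**Figure D4:**
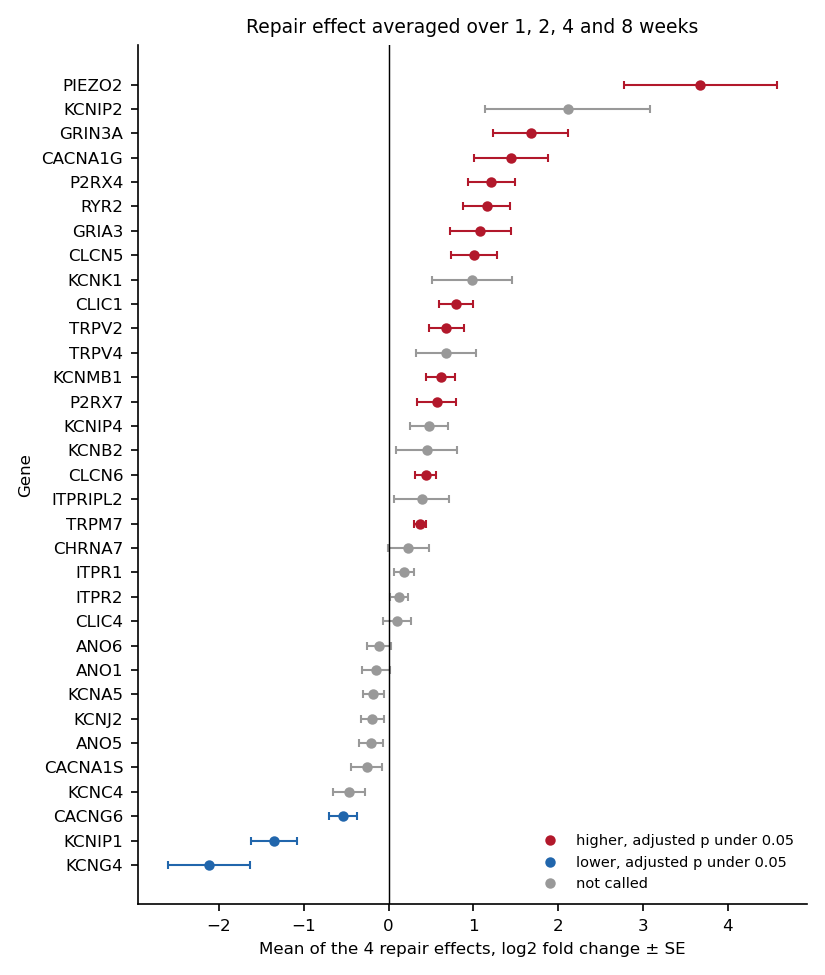
Mean of the 4 repair effects (log2FC ± SE) for each of the 33 channel genes, in order of size; red is called higher, blue called lower and grey not called. The mean effects run from -2.12 for KCNG4 to 3.67 for PIEZO2, with 13 called higher and 3 lower.

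The repair effect differed between time points in 0 of 33 channel genes, for 1 against 8, 2 against 4 and 1 against 2 weeks, by limma-voom, edgeR and DESeq2. At an unadjusted p under 0.05 limma-voom had 1, 0 and 2 of 33 (all genes 5.28%, 2.77% and 5.36%). Of all genes, limma-voom and edgeR likewise called 0 in each (background 0%), and DESeq2 called 3, 1 and 3. In control muscle alone, 6 of 33 were higher at 1 and 8 weeks than at 2 and 4 weeks (18.2%, background 15.5% in either direction and 7.87% higher) and 0 lower: KCNC4, KCNJ2, ITPR2, TRPM7, GRIN3A and ANO6.

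Of 15 other genes of ion and calcium handling (pumps, exchangers, store-operated calcium channel subunits and calcium-binding or anchoring proteins) 3 were called higher and 2 lower in the mean, with a median log2FC of -0.06. This is 33.3% in either direction, below the background of 40.1%. The higher genes included ORAI2, a store-operated calcium channel subunit (log2FC 1.23), and ATP2B4, a plasma membrane calcium pump (0.59). ORAI1, the main store-operated calcium channel, fell by 0.31, and S100A1, a calcium sensor of muscle, fell by 0.57. Of 8 channel genes outside the name rule 3 were called higher and 0 lower (37.5%, background 22.4% higher and 40.1% in either direction): LRRC8A of the volume-regulated anion channel (0.45), the cation channel PKD2 (0.68) and the gap junction gene GJA1 (0.95). Of the nerve markers, UCHL1 fell by 0.85 and L1CAM was higher by 0.69 in the mean.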

How the data were processed

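The series holds RNA-seq of 34 supraspinatus muscles, left and right, of 17 rabbits. The authors aligned reads with STAR to the rabbit genome (OryCun2.0) and deposited RSEM expected counts per gene, neither scaled nor whole (8.35% of values were not whole), so low counts are estimates. Here genes over 1 CPM in at least 1 library were kept. After TMM scaling, limma-voom was run with a separate level for each of 8 groups (treatment by time), after the study's methods. Versions were R 4.3.3, edgeR 4.0.16 and limma 3.58.1. CPM values are TMM-scaled. Counts were rounded for edgeR quasi-likelihood and DESeq2 1.42.0. The fit was tested on simulated counts.

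Calls were made at an adjusted p under 0.05. Channel genes and marker lists were chosen with earlier results of these data known. Every channel gene was named, those called with their levels. Symbols came from the study's supplementary sheets, which were held in part. The rabbit pairs the shoulders: 15 of 16 repair libraries correlated best with their own control (median r 0.258 of deviations from group means). Alternatives were other scaling, filters, tests and blocks, and leaving out libraries. Columns of fold changes and p-values in the supplementary sheets were not used. The values of 1 gene of the lists are not reported here.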

Additional observations from a re-analysis of the deposited data

Results flagged for a closer look

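In 18 of 112 groups of 4 or 5 libraries, over the 16 called genes, 1 library stood apart from the rest by Dixon's test, which by chance flags about 1 group in 20. Of these, 6 were libraries of rabbit 59 and 4 of rabbit 7. In repaired muscle of rabbit 59 at 2 weeks PIEZO2 was at 121.1 CPM, P2RX4 at 25.2 CPM, TRPV2 at 9.203 CPM, CLCN5 at 5.712 CPM and CLCN6 at 33.83 CPM, each high. CLIC1 was high in the control muscle of the same rabbit at 18.7 CPM. In repaired muscle of rabbit 7 at 1 week CACNA1G was at 4.627 CPM, PIEZO2 at 29.85 CPM and GRIA3 at 10.24 CPM, and PIEZO2 was high at 1.309 CPM in its control.

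Other single libraries were high for KCNG4 at 3.846 CPM (repair, rabbit 8, 1 week), CACNG6 at 172.7 CPM (control, rabbit 66, 4 weeks) and GRIN3A at 0.7274 CPM (repair, rabbit 67, 4 weeks). Low ones were CACNA1G at 0 CPM (control, rabbit 60, 2 weeks), CLCN5 at 0.3913 CPM and CLCN6 at 8.608 CPM (repair, rabbit 68, 4 weeks), CLCN6 at 6.212 CPM (control, rabbit 60, 2 weeks) and CLCN6 at 8.385 CPM (control, rabbit 67, 4 weeks).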

How the results depend on the processing

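The 16 calls in the mean of the 4 time points ranged from 13 to 19 over 12 other settings (27.3% to 48% of all genes called) and from 15 to 18 without 1 library (34.1% to 43.5%). Of the 16, 12 were called in every one of these: KCNG4, KCNIP1, KCNMB1, CACNA1G, RYR2, TRPV2, PIEZO2, GRIA3, GRIN3A, P2RX4, CLCN6 and CLIC1. With all 34 libraries, CACNG6, TRPM7, CLCN5 and P2RX7 were lost, and P2RX7 was lost in 7 of the 12 settings. No called gene changed sign. The counts at single time points depended on the setting. At 1 week, 3 in the fit of all 33 libraries, they were 1 of 33 with all 34 libraries (2.25% of all genes called), 5 with DESeq2 (17.3%), 14 with the rabbit as a fixed replicate block (26.3%), 8 with the rabbit correlation (22.4%), 9 with that and a filter at 5 libraries (25.2%), 13 with sample quality weights (32.3%), 11 for the time point alone (24.4%) and 14 without the repair libraries of rabbits 6 and 59 (23.4%). At 2 weeks, 4 in that fit, they were, in the same order, 1 (3.16%), 15 (31.3%), 13 (31.6%), 8 (25.2%), 8 (25.9%), 2 (6.31%), 0 (0.0396%) and 1 (4.07%), and 13 with edgeR (28.7%). At 4 weeks, 0 in that fit, DESeq2 gave 3 (5.16%), the fixed replicate block 1 (2.81%) and quality weights 3 (7.98%). Without 1 library of the same time point the counts were 1 to 5 at 1 week (4.58% to 13.6%) and 1 to 11 at 2 weeks (2.62% to 26.7%). They were 0 at 4 weeks (0.0155% to 2.17%) and 8 weeks (0% to 0.0309%). Without 1 of another time point they were 3 to 14 at 1 week (12% to 28.7%) and 3 to 5 at 2 weeks (14% to 16.9%). At 4 weeks (0.0928% to 2.76%) and 8 weeks (0.00773% to 0.00799%) they were 0. Among those of the same time point, the lowest at 1 week came without control rabbits 5, 6 or 8 or repaired rabbit 7, and at 2 weeks without control rabbit 60 or repaired rabbit 59. The highest came without repaired rabbits 5 or 8 at 1 week and repaired rabbit 64 at 2 weeks. The 14 at 1 week came without the repair library of rabbit 59 (28.7%). The cause was not tested. The filter at 5 libraries with the rabbit correlation, and the setting without rabbits 6 and 59, were chosen after seeing the data. Depth limits KCNK1, KCNIP2, KCNG4, GRIN3A and CACNA1G, among others, which had 0 or 1 counts in some libraries.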

Other observations

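The repair library of rabbit 3 at 8 weeks, left out of the fit, lay outside the range of the other 3 repair libraries of its group for most channel genes: above it for 6, below it for 21 and within it for 6 of 33. For 4 of the 33 it held no count.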
